A study of Mus musculus with 6 samples.

Results

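The Ifitm genes encode small interferon-induced transmembrane proteins, and 6 of the 13709 genes in a count table of sorted regulatory T cells (Tregs) belonged to them: Ifitm1, Ifitm2, Ifitm3, Ifitm5, Ifitm6 and Ifitm10. They were taken as every row whose symbol starts with Ifitm. The family was selected on the difference between KO and WT in these same samples, so that difference is described below with no test. Ifitm1, Ifitm2 and Ifitm3 were at 13.7 CPM or less in every WT sample and at 138 CPM or more in every KO sample, where CPM is the count of a gene scaled by the total of its library. Ifitm5 and Ifitm6 had no count in WT and low counts in KO, and Ifitm10 was near 1 CPM or below in all samples.

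RNA-Seq had been done on CD4+CD25+YFP+ cells from 3 WT and 3 KO samples of C57BL/6 mice, 2 weeks old per the study's methods. WT mice were Foxp3Cre and KO mice were Foxp3Cre Zfp335fl/fl, so both genotypes carried the Cre allele, and the KO samples differed by the floxed alleles of Zfp335, a zinc finger transcription factor. Cre and YFP are made from the Foxp3 locus, which restricts deletion and sorting to cells that express Foxp3, the transcription factor of Tregs. The labels disagreed on lymph nodes or spleen as the tissue and did not state whether each sample came from a separate mouse, so p-values measure only the spread between these samples, which may be technical. The KO mice had autoimmune disease per the study, which examined serum, tissues and T cell activation at 3 weeks of age. In heterozygous females without inflammation, the study found most of the Treg and helper T cell genes it measured almost equal to WT. It ascribed the change of such genes in KO mice to inflammation. In the samples used here, loss of Zfp335 in the cell and the inflamed setting of the cell cannot be told apart.

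IFITM1, IFITM2 and IFITM3 are broadly expressed proteins that sit in the plasma membrane or in endosomes and lysosomes, where they hinder fusion of viruses with the host membrane. Their genes respond to type I and type II interferons, and they are also found in immune cells at rest. IFITM5 is best known from bone-forming cells, Ifitm6 is a mouse gene located next to Ifitm3, and the function of IFITM10 is little known. The members share a CD225 domain, which includes the stretches that anchor them in the membrane.

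The first 5 of these genes lie together on chromosome 7 of the mouse genome build mm10 (GRCm38) within 69.0 kb. From low to high coordinates, GENCODE M21 places Ifitm5 at 140948958 to 140950291, Ifitm2 at 140954837 to 140955987, Ifitm1 at 140967221 to 140969825, Ifitm3 at 141009586 to 141010770 and Ifitm6 at 141015699 to 141017924. Ifitm1 is on the plus strand and its companions are on the minus strand. Ifitm10 lies apart, at 142325837 to 142373753 on the minus strand, 1307.9 kb beyond the cluster. A further annotated gene, Ifitm7, had no row in the table used here. The coding sequences of Ifitm1, Ifitm2 and Ifitm3 were 81.4% to 82.7% identical to each other, and other pairs of members 62.4% to 70.3%. Of the 31-base words in their transcripts, 14.7% for Ifitm1, 37.4% for Ifitm2 and 20.5% for Ifitm3 also occur in other annotated genes, so some of their reads could have been assigned to a near-identical copy or taken from one. Ifitm5, Ifitm6 and Ifitm10 shared 0% of such words with genes that do not overlap them.

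The 250 bases before the RefSeq starts of the 3 abundant members and of Ifitm6 are shown 5′ to 3′, from RefSeq on GRCm38.p6. Each window runs up to the base before that start. These are the clustered genes that the results turn on. The RefSeq starts of Ifitm1 and Ifitm6 differ from their GENCODE starts, and their windows lie wholly inside the GENCODE spans given above. Distances from the Ifitm1 start given below use the GENCODE start.

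Ifitm1 (chr7:140967826-140968075, plus strand): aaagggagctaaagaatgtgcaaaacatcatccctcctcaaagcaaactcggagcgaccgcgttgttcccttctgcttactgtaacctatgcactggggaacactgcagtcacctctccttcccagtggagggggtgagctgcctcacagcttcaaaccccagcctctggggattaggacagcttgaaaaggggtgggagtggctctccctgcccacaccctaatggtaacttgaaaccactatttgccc
Ifitm2 (chr7:140955962-140956211, minus strand): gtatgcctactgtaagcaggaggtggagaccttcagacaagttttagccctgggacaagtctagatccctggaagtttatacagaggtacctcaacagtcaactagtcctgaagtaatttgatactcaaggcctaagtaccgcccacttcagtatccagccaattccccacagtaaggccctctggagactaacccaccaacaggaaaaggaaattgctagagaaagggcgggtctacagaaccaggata
Ifitm3 (chr7:141010745-141010994, minus strand): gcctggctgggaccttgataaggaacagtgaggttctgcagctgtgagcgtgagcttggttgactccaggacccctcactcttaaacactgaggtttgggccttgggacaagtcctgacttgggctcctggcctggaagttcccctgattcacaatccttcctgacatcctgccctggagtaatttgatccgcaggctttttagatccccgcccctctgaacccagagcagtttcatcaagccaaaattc
Ifitm6 (chr7:141016893-141017142, minus strand): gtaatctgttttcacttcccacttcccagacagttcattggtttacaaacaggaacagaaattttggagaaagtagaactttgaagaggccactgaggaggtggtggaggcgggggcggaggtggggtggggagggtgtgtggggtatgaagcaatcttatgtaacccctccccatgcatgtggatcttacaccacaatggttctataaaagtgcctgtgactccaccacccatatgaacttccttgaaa

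All 6 members had a RefSeq window, and Ifitm10 had 3 of them.

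The 6 libraries held 32032631 to 40728419 counts. At these depths 3 counts, taken as the floor of detection for counting error, were 0.0747 to 0.0913 CPM. Zfp335 itself was at 99.4 ± 4.50 CPM in WT and 38.3 ± 1.66 in KO (SD, n = 3), a log2 fold change of -1.37 (SE 0.07). It shares 1107 exon bases with Pcif1, which overlaps it. Foxp3, Cd4 and Il2ra were each detected at a level of at least 459.7 CPM in every sample, and the log2 fold change of Foxp3 was -0.88 (SE 0.21). Without WT replicate 3 it was -0.57, under the fold cutoff given below. Of 6 Treg and T cell markers, 5 had a negative log2 fold change and 1, Cd4, a positive one (0.26). Il2ra was at -0.12 on the log2 scale. Cd3e, Ctla4 and Cd28 were at 338.1, 487.2 and 199.3 CPM in KO, with log2 fold changes of -0.45, -0.41 and -0.37. WT replicate 3 stood apart from the other WT samples: on the second principal component, which held 18.4% of the variance, it was at -58.9 while WT replicates 1 and 2 were at 22.1 and 34.4. Calls that were gained or lost without this library, and values that moved by over 1.5-fold, are given with and without it.

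To describe the family in single samples, counts were scaled to CPM with TMM factors. Ifitm1 had 0.30, 0.88 and 2.01 CPM in WT replicates 1 to 3, from 11, 29 and 67 counts. In KO replicates 1 to 3 it had 314.4, 315.4 and 307.8 CPM, from 11485, 12673 and 10851 counts. The lowest KO sample was 153-fold above the highest WT sample. Its means were 1.06 ± 0.87 CPM in WT and 312.5 ± 4.14 in KO (SD, n = 3), a log2 fold change of 8.22 (SE 0.44), the highest among the members with counts in WT.

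Ifitm2 had 4.59, 6.33 and 6.07 CPM in the WT samples and 343.2, 360.1 and 357.2 in the KO samples. The WT samples were close to each other, at 5.66 ± 0.94 CPM, and so were the KO samples, at 353.5 ± 9.05. The log2 fold change was 5.97 (SE 0.13), which had the smallest error of the family.

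Ifitm3, the member best known for blocking entry of influenza virus, had 1.71, 1.37 and 13.7 CPM in WT replicates 1 to 3. The KO samples had 138.2, 139.5 and 143.1 CPM. WT replicate 3 was 8.87-fold above the mean of the other WT samples, and every KO sample was still at least 10.1-fold above WT replicate 3. Over all samples the log2 fold change was 4.66 (SE 0.78), and without WT replicate 3 it was 6.49.

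Ifitm6 had 0 counts in each WT library and 116, 83 and 71 counts in the KO libraries, or 3.18, 2.07 and 2.01 CPM. Against the floor of 3 counts per library this was at least 26.5-fold higher in KO. Ifitm5 also had 0 counts in each WT library. In KO it had 28, 36 and 45 counts, or 0.77, 0.90 and 1.28 CPM, at least 10.7-fold higher than the floor. KO means were 2.42 ± 0.66 CPM for Ifitm6 and 0.98 ± 0.26 for Ifitm5 (SD, n = 3); both were far below the 3 abundant members. The annotated gene Gm45717, which has no row in the table, shares 227 exon bases with Ifitm5 and 268 with Ifitm2, and the strand setting of the counting was not stated.

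Ifitm10 had 18, 20 and 2 counts in WT and 28, 36 and 26 in KO. Its levels were 0.49, 0.61 and 0.06 CPM in WT and 0.77, 0.90 and 0.74 in KO. The groups did not overlap, but the log2 fold change of 1.04 had an SE of 0.69. WT replicate 3 was here the lowest WT sample, and without it the log2 fold change was 0.54. The annotated gene Gm49369, which has no row in the table, shares 215 exon bases with Ifitm10.

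Genes are named as called where edgeR's quasi-likelihood test gave an adjusted p under 0.1 together with an unadjusted p under 0.05 and a change of over 1.5-fold. By these cutoffs 5 of the 6 members were called higher, all but Ifitm10, where 11.9% of the 13594 genes tested were called higher, 12.5% lower and 24.4% either way. Every KO sample was above every WT sample in 6 of 6 members and in 26.2% of genes tested. Since this contrast chose the family, nothing is read from these counts. All 6 members passed the filter on low counts, Ifitm5 and Ifitm6 through their KO counts.

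**Figure D1:**
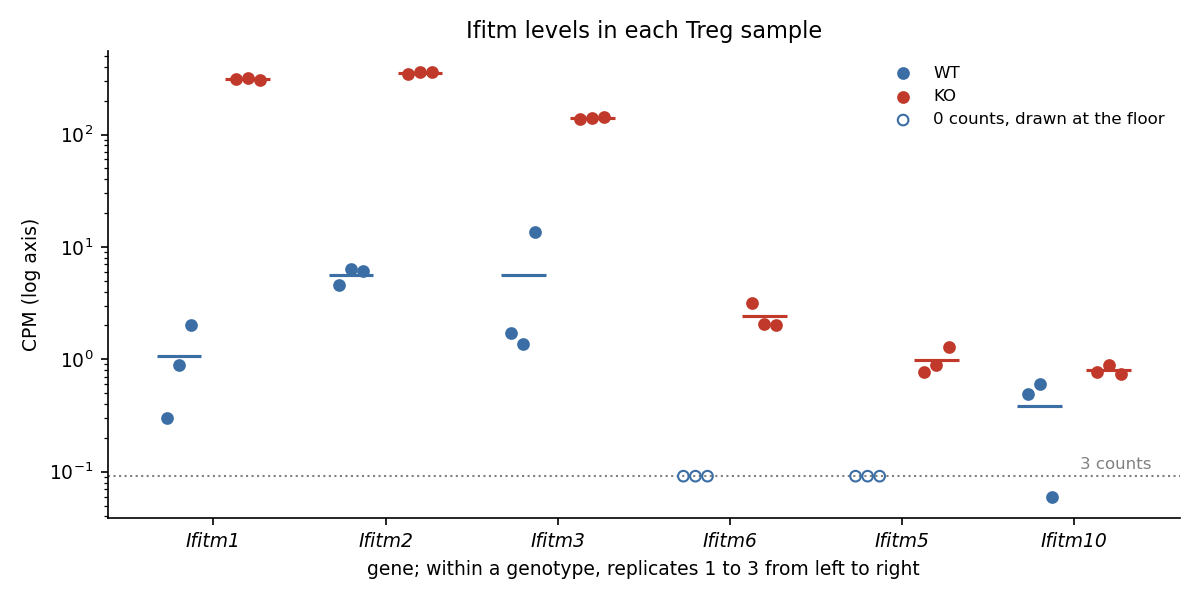
CPM on a log axis of the 6 Ifitm genes in 3 WT (blue) and 3 KO (red) samples; lines are means, and open circles are samples with 0 counts drawn at the floor of 3 counts. Ifitm1, Ifitm2 and Ifitm3 sit between 138 and 360.1 CPM in KO and between 0.30 and 13.7 CPM in WT, with WT replicate 3 the highest WT sample for Ifitm1 and Ifitm3 but not for Ifitm2.

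To compare levels between members, CPM was divided by the exon length of each gene. In KO the order of levels was Ifitm2 at 539.7 ± 13.8 CPM per kb, Ifitm1 at 285.7 ± 3.78, Ifitm3 at 206.9 ± 3.78, Ifitm6 at 2.67 ± 0.72, Ifitm5 at 1.28 ± 0.35 and Ifitm10 at 0.167 ± 0.018 (SD, n = 3). The samples of neighbours in this order did not overlap. On this scale Ifitm2 was above 99.6% of all genes in KO, Ifitm1 above 99.1% and Ifitm3 above 98.7%. The order of the first pair depends on the length used: per kilobase of coding sequence Ifitm1 had 982.8 and Ifitm2 818.3.

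In WT the order was Ifitm2 at 8.65 ± 1.43 CPM per kb, Ifitm3 at 8.24 ± 10.3, Ifitm1 at 0.97 ± 0.80 and Ifitm10 at 0.081 ± 0.060. Ifitm2 and Ifitm3 did not differ beyond their spread, and their samples overlapped. Per kilobase of coding sequence they had 13.6 for Ifitm3 and 13.1 for Ifitm2. Without WT replicate 3, the WT means per kilobase of exon were 8.34 for Ifitm2, 2.27 for Ifitm3 and 0.54 for Ifitm1. Ifitm2 was above 59.5% of genes in WT and Ifitm1 above 23.9%.

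The make-up of the summed Ifitm transcripts differed between samples. Summed over the members, the level was 7.09, 9.20 and 21.8 CPM in WT and 800.4, 818.9 and 812.1 in KO. In KO replicates 1 to 3, Ifitm2 gave 51.4%, 52.5% and 52.3% of the sum per kilobase. Ifitm1 gave 28.2%, 27.5% and 27.0% there, but 2.76%, 6.39% and 5.88% in WT. The proportion of Ifitm1 was thus higher in each KO sample than in each WT sample. Per kilobase of coding sequence, a scale added after the data were seen, Ifitm1 gave the largest share in KO, at 46.4%, 45.6% and 45.0%, with 37.3% to 38.4% for Ifitm2, and in WT Ifitm1 gave 5.76% to 12.9%.

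Ifitm3 gave 25.5%, 16.0% and 64.5% of the sum in WT replicates 1 to 3 and 19.6% to 20.3% in KO. The ratio of Ifitm3 to Ifitm2 per kilobase was 0.36 and 0.209 in WT replicates 1 and 2, 2.18 in WT replicate 3, and between 0.374 and 0.389 in KO. The KO samples were therefore alike in proportion as well as in level, and WT replicate 3 was the single sample in which Ifitm3 exceeded Ifitm2.

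**Figure D2:**
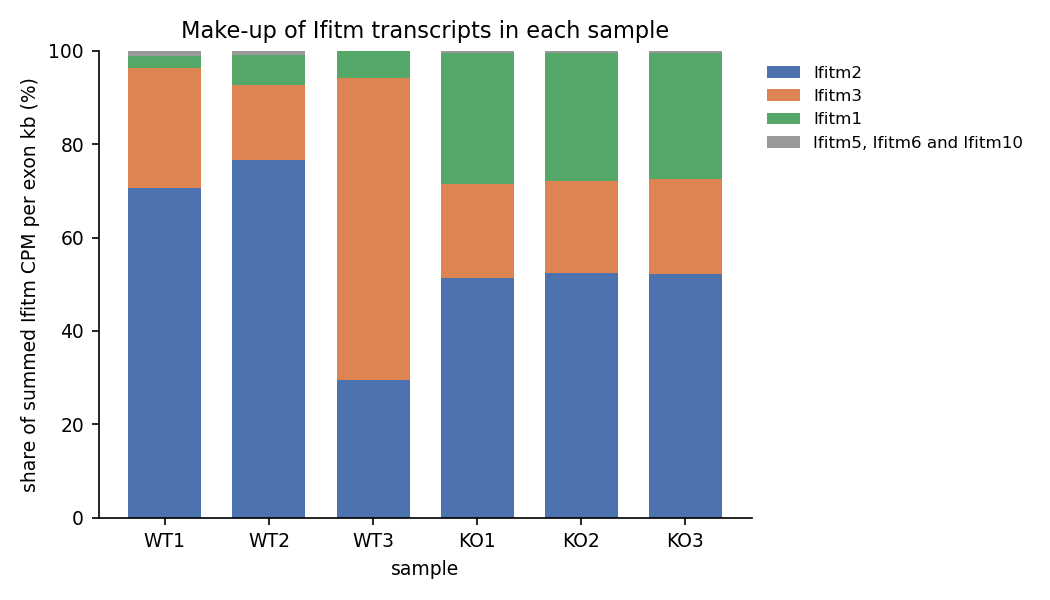
Share (%) of each Ifitm gene in the summed Ifitm CPM per kilobase of exon, one bar per sample. Ifitm1 takes 27.0% to 28.2% of the KO bars and at most 6.39% of the WT bars, and Ifitm3 takes 64.5% of WT replicate 3; per kilobase of coding sequence Ifitm1, not Ifitm2, has the largest KO share (45.0% to 46.4%).

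Spread between replicates of the abundant members was small in KO, and in WT it was large for Ifitm1 and Ifitm3 but not for Ifitm2. The closeness in KO was not particular to the family. Over all genes tested, the KO samples were at 53.9 to 55 on the first principal component and at 0.42 to 1.27 on the second. The coefficient of variation in KO was 1.32% for Ifitm1, 2.56% for Ifitm2 and 1.83% for Ifitm3. In WT it was 81.8% for Ifitm1, 16.6% for Ifitm2 and 125% for Ifitm3. The ratio of the highest to the lowest WT sample was 6.74 for Ifitm1, 1.38 for Ifitm2 and 9.98 for Ifitm3.

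WT replicate 3 was then compared with the mean of WT replicates 1 and 2. Of 11698 genes with a WT mean of at least 1 CPM, 27 had a higher ratio than Ifitm3, whose log2 ratio was 3.07 (0.1 CPM added to both values). Ifitm1 had a log2 ratio of 1.61, and 158 genes exceeded it. Ifitm2 had a log2 ratio of 0.15, close to the median of all genes at -0.002.

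Because WT replicate 3 differed from its group, a list of 50 interferon-stimulated genes outside the family was examined in the same way. Of these, 47 were in the table, and Rsad2, Oasl1 and Ifi203 had no row. All 47 were higher in WT replicate 3 than in both other WT samples, 44 of them by over 1.5-fold of the mean, and 29 were higher there than in every KO sample. They summed to 4095, 4187 and 7899 CPM in the WT samples, the last being WT replicate 3, and to 7422 to 7482 CPM in KO. The calls of the list moved with this library. With all samples 14 of 47 genes, 29.8%, were called higher and 0 lower, beside 11.9% and 12.5% of all genes tested. Without WT replicate 3, 33 genes were called higher and 0 lower, when 13.6% of all genes were called higher. Beside the count of 0 lower by edgeR, 1 gene, Sp100, was lower at an unadjusted p under 0.05 without reaching the fold cutoff, and DESeq2 also called 0 lower. The median log2 fold change of the list was 0.38 with all samples and 1.01 without WT replicate 3, beside -0.035 over all genes tested.

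The 6 called genes of the list with the largest differences were Ifi204, Ly6a, Gbp2, Iigp1, Oas1g and Oasl2. Ifi204, a DNA-binding member of the p200 family, had 1.28, 0.27 and 7.87 CPM in WT and 75.3 to 80.2 in KO, higher by 4.64 on the log2 scale (SE 0.82, adjusted p = 0.0034, edgeR). Ly6a, which encodes the surface protein Sca-1, had 26.4, 27.3 and 103.2 CPM in WT and 372.5 to 391.0 in KO, and was higher by 2.86 on the log2 scale (SE 0.52, adjusted p = 0.0038, edgeR). Both were thus higher in WT replicate 3 than in its companions and higher again in KO. Without WT replicate 3 the log2 fold changes were 6.60 for Ifi204 and 3.82 for Ly6a.

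Gbp2, a guanylate-binding GTPase, was higher in KO by 2.38 on the log2 scale (SE 0.22, adjusted p = 0.0002, edgeR), and Iigp1, an immunity-related GTPase, by 1.93 (SE 0.32, adjusted p = 0.0026). Oas1g and Oasl2, of the oligoadenylate synthetase family, were higher by 1.85 (SE 0.66, adjusted p = 0.06) and 1.41 (SE 0.54, adjusted p = 0.075). Leaving out single samples ended the call of Oasl2 in 5 of 6 cases and that of Oas1g in 3 of 6, glmTreat called neither, but without WT replicate 3 they were called at 2.52 and 2.65 on the log2 scale. Transcripts of Oas1g share 65.4% of their 31-base words with other genes, mostly Oas1a, and those of Ifi204 share 46.0%, so that their reads could have been split. Isg15 and Ifit1, chosen after their values were seen, were not called with all samples. Isg15, a ubiquitin-like modifier, had 11.8, 16.2 and 62.0 CPM in WT and 47.5 to 50.4 in KO, and without WT replicate 3 it was called, at 1.82 on the log2 scale (adjusted p = 7.4e-09, edgeR). Ifit1, which binds viral RNA ends, had 20.3 CPM in the lowest and 107.9 in the highest WT sample, WT replicate 3, and 30.0 to 31.9 in KO, and its log2 fold change went from -0.69 to 0.58 without WT replicate 3.

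Against the mean of WT replicates 1 and 2, with 0.1 CPM added to both values, the KO mean was higher by 8.82 on the log2 scale for Ifitm1, 5.99 for Ifitm2 and 6.42 for Ifitm3. The median of the interferon-stimulated list by the same measure was 1.01, and 1 of its 47 genes, Ifi204 at 6.48, exceeded Ifitm2. As the family was chosen on the difference between KO and WT and the list was not, nothing is read from this rank. By the corresponding ratio of WT replicate 3, the median of the list was 1.14. Both ratios share the same WT samples, so their values are given side by side and no relation between them was computed.

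**Figure D3:**
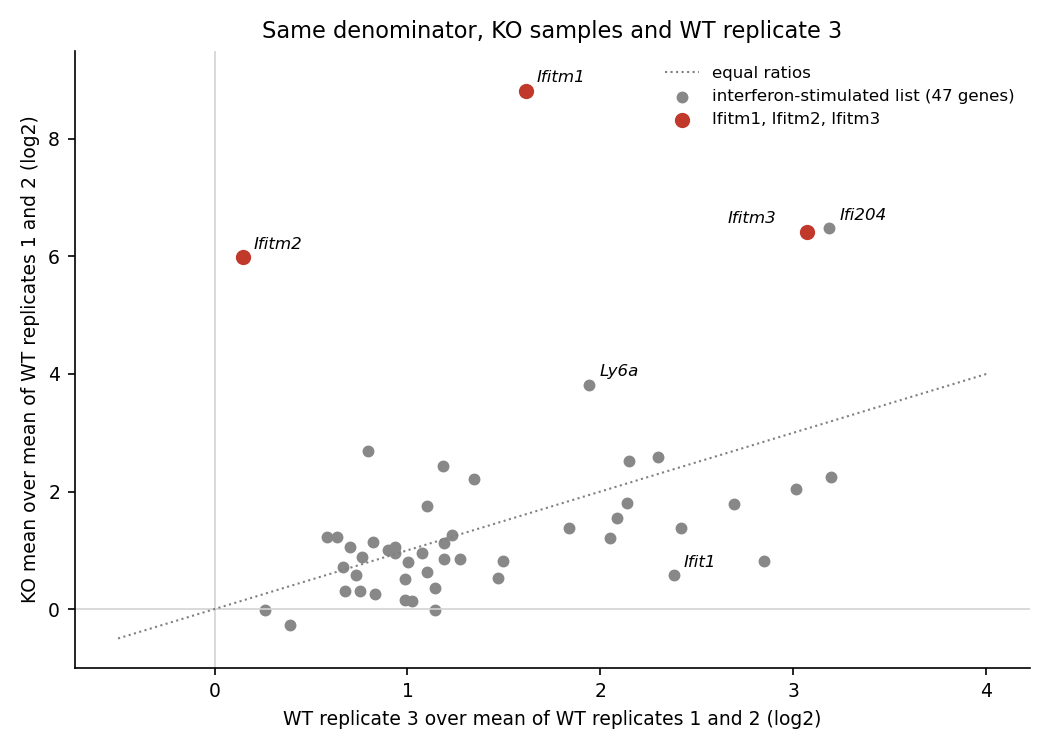
Each point is a gene; the x axis is WT replicate 3 and the y axis the KO mean, both as log2 ratios to the mean of WT replicates 1 and 2 (CPM + 0.1), for 47 interferon-stimulated genes (grey) and Ifitm1, Ifitm2 and Ifitm3 (red). The dotted line marks equal ratios. The Ifitm genes, which were chosen on the difference between KO and WT, lie above it at 5.99 to 8.82. Ifitm2 had almost no rise in WT replicate 3 (0.15), and most of the list lies below 3 on the y axis.

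Interferon signalling genes were examined from the ligands to the factors that act on target promoters. Of 20 genes tested, 4 were called higher and 2 lower, 30% in all beside 24.4% of all genes. Ifng, which encodes the type II interferon, had 3.78, 4.54 and 2.64 CPM in WT and 82.8, 84.7 and 84.4 in KO, and was higher by 4.52 on the log2 scale (SE 0.18, adjusted p = 7.1e-06, edgeR). WT replicate 3 had the lowest Ifng of all samples. Ifnb1, a type I interferon gene, had no row.

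Of the receptors, Ifngr1, the ligand-binding chain for interferon-γ, was higher by 1.23 on the log2 scale (SE 0.22, adjusted p = 0.0036, edgeR), while Ifnar2, a chain of the type I receptor, fell by 0.81 (SE 0.07, adjusted p = 0.00021). Il10rb, a chain shared by the receptors for type III interferon and IL-10, fell by 0.93 (SE 0.09, adjusted p = 0.00021). The receptor kinase Jak2 was higher by 0.89 (SE 0.11, adjusted p = 0.00072). Ifngr2, the second chain of the interferon-γ receptor, was at 57.3 ± 1.14 CPM in WT and 38.8 ± 1.41 in KO (SD, n = 3), with a log2 fold change of -0.56 that did not reach the fold cutoff, though it did with library totals alone or without KO replicate 3. The chains of the receptors were thus not changed in 1 direction.

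Irf1, a transcription factor induced by interferon-γ, was higher by 0.99 on the log2 scale (SE 0.22, adjusted p = 0.0096, edgeR). Irf7, a regulator of type I interferon responses, had 58.5, 60.4 and 203.0 CPM in WT and 122.5 to 130.8 in KO and was not called. When WT replicate 3 was left out, Irf7 went from 0.24 to 1.083 on the log2 scale. Of the 20 signalling genes, 9 were then called higher instead of 4, beside 13.6% of all genes.

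To see whether the difference ran past the borders of the cluster, the genes around it were examined. Within 250 kb of the span of the Ifitm genes, 41 other genes were tested, 7 were called higher and 6 lower, 31.7% in all beside 24.4% of all genes. Their median log2 fold change was 0.11. Within 250 kb of the cluster of 5 alone, a window added after the data were seen, 4 of 20 genes were higher and 2 lower, 30% in all. The nearest gene of the table on the low side of the cluster, Pgghg, a glycosidase of collagen, starts at -25.8 kb from the Ifitm1 start. It had 58.7, 51.1 and 39.9 CPM in WT and 37.4 to 39.2 in KO and was not called.

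Next to it, Nlrp6, an innate immune sensor, starts at -46.3 kb and had the largest difference among the neighbours. It had 0.22, 0.21 and 0.36 CPM in WT and 2.05, 1.59 and 2.10 in KO, and was higher by 2.85 on the log2 scale (SE 0.42, adjusted p = 0.0016, edgeR). On the other side, the nearest gene was B4galnt4, a glycosyltransferase, 93.9 kb from the Ifitm1 start, which was higher by 1.22 on the log2 scale (SE 0.19, adjusted p = 0.0022). The gene after it, Pkp3, a desmosome protein, had 94.7 ± 13.5 CPM in WT and 111.0 ± 4.49 in KO (SD, n = 3) and was not called. Irf7, described above, is also a neighbour, 299.3 kb from the Ifitm1 start.

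Farther out, Psmd13, a proteasome subunit, was called higher with a log2 fold change of 0.79, and Zfp941 with 1.04. Psmd13 shares 342 exon bases with Sirt3, which was not called. Lmntd2 and Lrrc56 were called lower, with log2 fold changes of -1.14 and -0.61. They share 64 exon bases with each other, and reads there could be counted for either. The calls of Zfp941 and Lrrc56 were each lost in 5 of 6 cases when single samples were left out. Ctsd, the lysosomal protease cathepsin D, lies beside Ifitm10, 1420.8 kb from the Ifitm1 start, and was higher by 1.01 (SE 0.07, adjusted p = 5.3e-05, edgeR).

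**Figure D4:**
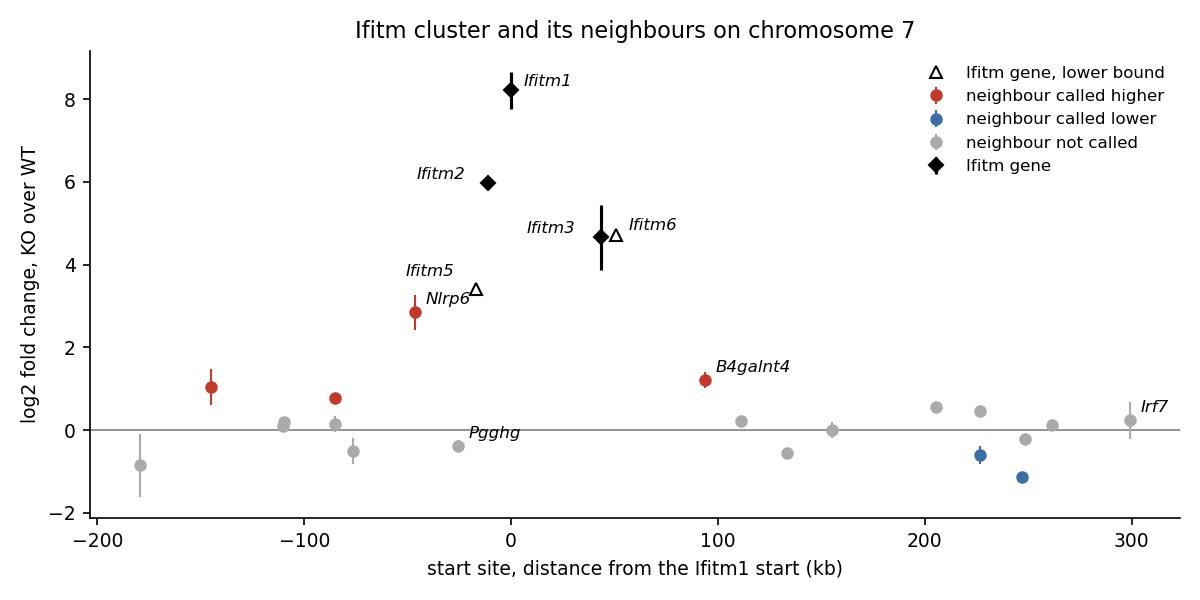
Log2 fold change of KO over WT (y axis) against the distance of a gene's start from the Ifitm1 start in kb (x axis) for the 5 clustered Ifitm genes and the 20 neighbours within 250 kb of the cluster; bars are SE, and triangles are lower bounds for genes at 0 in WT. The Ifitm genes lie at 3.4 or above, while Pgghg, between Nlrp6 and the cluster, is at -0.38.

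Genes that modify IFITM proteins were examined as a list of 16: palmitoyltransferases, a ubiquitin ligase, methylation enzymes, and partners in membranes. Of these, 1 was called higher and 3 lower, 25% in all beside 24.4% of all genes. Nedd4, the ubiquitin ligase that marks IFITM3 for breakdown, had 15.4 ± 4.49 CPM in WT and 43.3 ± 0.62 in KO (SD, n = 3) and was higher by 1.49 on the log2 scale (SE 0.19, adjusted p = 0.00081, edgeR). Zdhhc20, a palmitoyltransferase that attaches lipid to IFITM3, fell by 1.05 on the log2 scale (SE 0.12, adjusted p = 0.0005).

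Cd81, a tetraspanin with which IFITM1 associates, fell by 0.92 (SE 0.08, adjusted p = 0.00016, edgeR), and Zdhhc1 fell by 0.74 (SE 0.27, adjusted p = 0.06), a call lost in 4 of 6 cases when single samples were left out. Zmpste24, a protease that acts with IFITM proteins, had 61.1 ± 0.89 CPM in WT and 78.5 ± 3.57 in KO (SD, n = 3), below the fold cutoff.

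Of 8 symbols listed for other genes with a CD225 domain, Tmem233, Syndig1, Syndig1l, Trarg1 and Tusc5 had no row. Of the 3 tested, 0 were called higher by edgeR or by DESeq2 and 2 were lower, where 12.5% of all genes were called lower. Prrt1 and Prrt2, proline-rich transmembrane proteins best known from neurons, were lower in KO. Prrt1 had 7.47, 7.28 and 8.71 CPM in WT and 2.30, 2.07 and 2.27 in KO, and its log2 fold change was -1.82 (SE 0.19, adjusted p = 0.00035, edgeR). For Prrt2 the log2 fold change was -1.85 (SE 0.36, adjusted p = 0.0054), but 95.7% of its 31-base words lie in an overlapping gene with no row in the table. Tmem91 was at 0.71 ± 0.41 CPM in WT and 0.52 ± 0.05 in KO (SD, n = 3) and was not called.

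The genes of the table most alike in pattern were found by the distance between log2 CPM profiles over the 6 samples, each centred on its mean, among those averaging 5 CPM or more. For Ifitm1 they were Il13, Ptgdr2, Il5, Klrc1 and Il12rb2, at distances of 1.60 to 2.29. Their fitted log2 fold changes were 6.21 to 13.08, the highest being that of Il5, which was at 0 CPM in WT. For Ifitm2 they were Atp8b4, Hdc, Scin, Epas1 and Itga1, at 0.772 to 1.54, with log2 fold changes of 5.52 to 6.91. Changes of the size seen in these members thus also occurred outside the family. For Ifitm3 they were Lilr4b, Lilrb4a, Ifi204, Gzmb and a second row named Lilrb4a, at 0.574 to 1.63.

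For Ifitm6 the nearest were Hdc, Scin, Ifitm2, Atp8b4 and Ncald, at 0.738 to 1.18, and for Ifitm5 they were Lgals3, 1500009L16Rik, Ncald, Rai14 and Tgm2, at 0.536 to 0.844. Hdc, Scin and Atp8b4 were thus near both Ifitm2 and Ifitm6. For Ifitm10 they were Dsg2, Cenps, Neil3, Oip5 and Fbln1, at 0.437 to 0.661. The 3 abundant members had no gene in common among their nearest 5. These are descriptions over samples that share a genotype split, and the profiles of Ifitm5 and Ifitm6 in WT rest on the prior count added to 0.

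Since Ifitm genes are also expressed by myeloid cells, markers of other cell types were summed in each sample. Of 17 myeloid markers tested, 10 were called higher, beside 11.9% of all genes, and 0 lower. They summed to 72.9, 84.5 and 140.3 CPM in WT replicates 1 to 3 and to 190.2 to 195.4 CPM in KO. Ccr2, a chemokine receptor that activated T cells also express, gave 101.5 ± 2.96 CPM of the KO sums and 48.3 ± 27.6 of the WT sums (SD, n = 3). The count of 0 lower was also given by DESeq2, and no marker with a lower level had an unadjusted p under 0.05. The defining markers Cd14, Ly6g, Retnlg, Camp, Ngp, Elane and Mpo had no row in the table. S100a8 and S100a9 were at 0 in each WT sample and at 2.10 ± 0.76 and 2.18 ± 0.47 CPM in KO (SD, n = 3). The study's single-cell RNA-Seq of sorted Tregs from younger mice found both high in a Treg subset that it termed dysfunctional. That subset was more frequent there in KO than in WT. Csf1r was at 1.52 ± 1.14 in WT and 6.93 ± 0.57 in KO, Itgam at 3.02 ± 0.62 and 13.2 ± 1.26, and Lyz2 at 10.3 ± 5.25 and 19.5 ± 1.03. The call of Lyz2 was lost without WT replicate 3, and also in other alternatives. Among these were leaving out WT replicate 1 or KO replicate 1, library totals alone and glmTreat. Without that library 12 of the 17 markers were called higher, beside 13.6% of all genes.

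The monocyte and macrophage markers among them summed to 70.2 to 134.5 CPM in WT and 181.5 to 185.6 in KO, and the neutrophil markers to 2.69 to 5.77 and 6.92 to 11.0. Natural killer markers summed to 4.94 to 10.2 CPM in WT and 48.3 to 50.5 in KO, with 4 of 5 called higher beside 11.9% of all genes. Most of the KO sum was Klrk1, at 30.1 ± 0.97 CPM, and Eomes, at 11.3 ± 0.24 (SD, n = 3), both also found in some activated T cells. Of the B cell, CD8 T cell and dendritic cell markers, 0 of 6, 1 of 2 and 1 of 5 were called higher, and of the endothelial and stromal and the erythroid markers 0 of 6 and 0 of 5. The dendritic cell marker was Itgax, at 0.44 ± 0.34 CPM in WT and 7.03 ± 1.63 in KO. Called lower were 1 B cell marker, Cd79b, and 1 stromal marker, Col1a2, at -1.26 and -2.07 on the log2 scale, beside 12.5% of all genes. Without WT replicate 3, 1 endothelial and stromal marker was called higher and 3 of 5 erythroid markers lower. Of all genes, 13.6% were then called higher and 26.8% either way. The part of other cells, or of Treg subsets, in the Ifitm levels was not tested. In these bulk samples, a larger share of cells with Ifitm RNA and more Ifitm RNA per cell cannot be told apart.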

How the data were processed

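Total RNA of CD4+CD25+YFP+ cells from 3 WT and 3 KO samples was sequenced. Per the study's methods, the authors filtered reads with SOAPnuke, kept 1 alignment for each read with HISAT2 on mm10, and used StringTie for the quantities of genes. The deposited table holds raw counts in whole numbers for 6 samples. How whole numbers were obtained, the gene annotation and the strand setting were not given in the sources used here. Rows summed to 60 or more, and less abundant genes were absent.

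Counts were tested with edgeR 4.0.16 in R 4.3.3: filterByExpr with a minimum count of 10 (115 of 13709 genes removed), TMM scaling, and the quasi-likelihood F-test of KO against WT, two-sided, with Benjamini-Hochberg adjustment over 13594 genes. SE is the size of the log2 fold change divided by the square root of F. Levels are CPM with TMM-scaled totals (factors 0.9796 to 1.0366), as mean ± SD, n = 3. Library totals were 32032631 to 40728419. The floors cover counting error only, while SD and SE include the spread between samples. Lengths and positions came from GENCODE M21, which held 97.9% of symbols. The procedure was tested on simulated counts.

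The members and gene lists were chosen with earlier results of these data known. Genes named are the Ifitm rows, Zfp335, neighbours on the chromosome, genes of the signalling and handling lists, the 6 called interferon-stimulated genes with the largest change, and the 5 most alike genes of each member. Values of some listed genes are not reported here. Besides the overlaps stated above, Ifnar2, Il10rb, Irf1, Irf7, Ifng, Csf1r, Itgam, Ctsd, Cd81, Eomes, Gbp2, Tmem91, Zfp941 and Zmpste24 share exon bases with an overlapping gene. Foxp3 shares 590 exon bases with Ccdc22 and 266 with Ppp1r3f, both in the table. Lyz2 and Ly6a share sequence with a paralog. The counts of all these genes are therefore uncertain. Alternatives were RLE size factors, library totals, DESeq2 1.42.0, no filter, a stricter filter, an adjusted p under 0.05 without a fold cutoff, glmTreat from edgeR, leaving out each sample, a replicate block, and coding in place of exon length.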

Additional observations from a re-analysis of the deposited data

How the results depend on the processing

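As the family was chosen on this contrast, its values under the alternatives are a description. The log2 fold change was 7.75 to 9.07 for Ifitm1, 5.83 to 6.05 for Ifitm2, 4.20 to 6.49 for Ifitm3 and 0.54 to 1.51 for Ifitm10 when single samples were left out, the upper end for Ifitm1 and Ifitm3 being without WT replicate 3. Under other scalings, filters, DESeq2 and the block it was 8.18 to 8.29, 5.93 to 5.99, 4.64 to 5.25 and 0.99 to 1.30. Fewer samples or another length are the construction of those alternatives, and the cause of other moves was not tested. Per kilobase of coding sequence, levels in WT and KO were 3.35 and 982.8 for Ifitm1, 13.1 and 818.3 for Ifitm2, 13.6 and 341.3 for Ifitm3, and 0.456 and 0.946 for Ifitm10, and KO levels were 2.44 for Ifitm5 and 6.50 for Ifitm6.

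With an adjusted p under 0.05 and no fold cutoff, 2610 genes were higher and 2634 lower, and the lists held 9 higher and 1 lower (interferon-stimulated), 6 lower (signalling) and 5 higher (handling). With glmTreat, 941 genes were higher and 745 lower, with 7 interferon-stimulated genes higher, 4 neighbours higher and 1 lower, and 5 myeloid markers higher. With library totals alone 4 signalling genes were lower. With at least 10 counts in every sample 5 myeloid markers were higher and 1 lower. The window around the cluster, added after the data were seen, held 4 higher and 2 lower. Leaving out single samples gave from 9 (leaving out WT replicate 1, WT replicate 2 or KO replicate 3) to 33 (without WT replicate 3) interferon-stimulated genes higher and 0 to 1 lower, 4 to 9 signalling genes higher, 3 to 7 neighbours lower, and 6 (without KO replicate 1) to 12 myeloid markers higher. Irf7 was at -0.06 to 1.083 and Ifit1 at -1.06 to 0.58 on the log2 scale, both upper ends without WT replicate 3.

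Same-numbered WT and KO samples did not deviate together (correlations 0.0377, 0.0404 and -0.0116), so they share only a number. A fit with the replicate number as a block called 3190 genes, 3100 of them among the 3318 called without it. Depth limits Ifitm5, Ifitm6 and Ifitm10, whose counts were 0 to 116 per library.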
